A study of Rattus norvegicus with 28 samples.

Results

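The genes described here are the receptors for the incretin hormones and for glucagon (Glp1r, Gipr and Gcgr), the stimulatory G protein gene Gnas, and the adenylyl cyclase genes Adcy3, Adcy5, Adcy6, Adcy8 and Adcy9. They were chosen by name, and each symbol was represented by its deposited transcript with the highest mean TPM (a transcript level corrected for transcript length and for the library total). These are 9 of 17455 gene symbols in the table, and 8 of the 9 were among the 10275 whose mean over all libraries reached 1 TPM and which entered the tests. The libraries came from INS-1 cells, a rat insulinoma line used as a model of the pancreatic beta cell, which were either wild type (WT) or carried Med14 S983A, a CRISPR knock-in that replaces a serine of the Mediator subunit Med14 with alanine. Edited cells were sorted as single cells and grown as clones, so each S983A line is 1 clone. The study made 2 such lines and states that its experiments used both, but the labels do not say which line gave which library. In the genotype differences below, an effect of the edit and a difference between clones cannot be told apart. In each genotype, cells were left untreated (CON) or were treated with the GLP-1 receptor agonist exendin-4 (Ex-4, 10 nM) or with forskolin (FSK, 10 µM), each for 1, 8 or 16 h. Per the labels, cells were washed and put in medium without serum before treatment. This gives 14 groups of 2 replicates. The study calls its replicates biological, but the sources do not say whether they were separate cultures, and p-values here measure only the spread between these libraries.

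Glp1r, Gipr and Gcgr encode class B G protein-coupled receptors for GLP-1, GIP and glucagon. When bound, they activate the stimulatory alpha subunit encoded by Gnas, which in turn activates membrane adenylyl cyclases, and the cAMP they make drives protein kinase A and Epac and raises glucose-stimulated insulin secretion in beta cells. Ex-4 enters this route at Glp1r, whereas forskolin activates adenylyl cyclases directly. The cyclases differ in their regulation: Adcy5 and Adcy6 are inhibited by calcium, Adcy8 is stimulated by calcium and calmodulin, and Adcy9 is the least sensitive to forskolin.

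Promoter windows from RefSeq (build GRCr8) were on hand for 5 of the 9 genes, and the 250 bases before the annotated start are shown for 4 of them, 5′ to 3′ on the strand of the gene. They were chosen because Gcgr was lower in S983A cells, Adcy5 was higher, Adcy9 changed by less than 1.5-fold in all 12 comparisons of a treatment with CON, and Glp1r, which also had no call in those comparisons, is the receptor of the agonist. Capitals mark the GC box (GGGCGG, or CCGCCC on the other strand) and the half-site of the cAMP response element (TGACG, or CGTCA on the other strand). The motifs share no letters, and GC boxes that overlap each other were counted separately. For Gcgr, the first of 2 windows is shown.
Gcgr, chr10:106306553-106306802, plus strand: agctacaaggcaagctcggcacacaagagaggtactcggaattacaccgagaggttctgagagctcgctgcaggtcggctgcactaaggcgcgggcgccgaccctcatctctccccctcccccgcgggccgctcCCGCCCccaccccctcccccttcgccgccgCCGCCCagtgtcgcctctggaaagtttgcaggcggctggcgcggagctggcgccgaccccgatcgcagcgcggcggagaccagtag
Adcy5, chr11:79123344-79123593, minus strand: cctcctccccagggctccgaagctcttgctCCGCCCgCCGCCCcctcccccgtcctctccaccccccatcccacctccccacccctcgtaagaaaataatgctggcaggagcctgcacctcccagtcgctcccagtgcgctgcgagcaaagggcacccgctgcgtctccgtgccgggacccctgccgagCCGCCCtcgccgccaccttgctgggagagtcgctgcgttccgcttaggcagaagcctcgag
Adcy9, chr10:11645595-11645844, plus strand: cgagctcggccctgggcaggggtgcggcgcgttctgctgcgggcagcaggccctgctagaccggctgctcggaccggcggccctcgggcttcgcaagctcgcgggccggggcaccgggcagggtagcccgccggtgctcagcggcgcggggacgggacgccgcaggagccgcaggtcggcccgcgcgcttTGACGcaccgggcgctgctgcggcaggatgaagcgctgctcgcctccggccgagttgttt
Glp1r, chr20:8973143-8973392, plus strand: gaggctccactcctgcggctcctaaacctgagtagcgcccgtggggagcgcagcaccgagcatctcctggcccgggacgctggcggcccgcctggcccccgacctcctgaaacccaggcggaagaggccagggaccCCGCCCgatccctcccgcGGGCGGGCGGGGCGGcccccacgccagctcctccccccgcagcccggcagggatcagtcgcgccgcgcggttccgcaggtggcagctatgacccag
The window of Glp1r held 4 GC boxes, that of Adcy5 held 3, that of Gcgr held 2 and that of Adcy9 held 0. The half-site was found once, 60 bases before the start of Adcy9, and in none of the other 3 windows shown. Of 33469 RefSeq promoter windows of the same length, 30.5% held the GC box and 18.2% the half-site. Matches are a description of these letters only.

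Summed over all deposited transcripts, libraries held 42183630 to 56755944 fragments, except for 1 with 91794163 (S983A 8 h FSK replicate 2). Transcripts of a gene can share exons, so these sums can count a fragment more than once. Replicates correlated at Pearson r = 0.998 to 0.999 across genes, and their counts differed by more than sampling noise. Of 12 beta cell markers, 10 were in the table and all of these had a mean of at least 1 TPM, with a summed level of 45665 to 84910 TPM. The marker lists of delta, PP, epsilon, acinar, fibroblast and endothelial cells each summed to at most 0.793 TPM in any library, that of leukocytes to at most 1.75 TPM and that of ductal cells to at most 2.82 TPM. Beta cell markers themselves differed between the untreated genotypes: Ins2, an insulin gene, was at 2938 TPM in WT and 35068 TPM in S983A, and the glucose transporter gene Slc2a2 at 517 and 62.6 TPM. The part of these differences in the results below was not tested. Med14, the edited gene, was at 20.9 ± 0.88 TPM in WT CON and 19.9 ± 0.50 TPM in S983A CON (SD, n = 2, log2 difference -0.06, limma adjusted p = 0.404), but a gene level cannot show the edited codon and so does not check the genotype.

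Gnas was by far the most abundant member, at 3548 and 3622 TPM in the WT CON libraries. Its 6 deposited transcripts share exons, so a level for 1 of them is uncertain. Among the receptors of untreated WT cells, Gcgr came first at 139.6 and 140.6 TPM, Glp1r followed at 95.4 and 89.8 TPM, and Gipr was at 71.0 and 72.5 TPM. These 3 pairs of values do not overlap. Adcy6 was the leading cyclase in WT CON at 87.6 and 84.1 TPM. Adcy8 (20.7 and 19.8 TPM) and Adcy9 (17.9 and 18.01 TPM) followed, and Adcy5 was low at 2.06 and 1.63 TPM. All of these orders compare levels per transcript length. The level of Gcgr is that of 1 of its 3 deposited transcripts, NR_073147, whose prefix is the one RefSeq gives to non-coding RNA. Its place among the receptors with the others is not given here.

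Adcy3, the cyclase of olfactory cilia and primary cilia, lay below the limit for testing, at 0.101 to 0.447 TPM in all 28 libraries, which is 14 to 61 fragments. Over groups, its mean was lowest in WT 8 h FSK, with 0.108 and 0.101 TPM, and highest in S983A 16 h Ex-4, with 0.383 and 0.447 TPM. Except in these groups and in WT 16 h FSK (0.129 and 0.101 TPM), the treated replicates overlapped with those of CON.

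**Figure D1:**
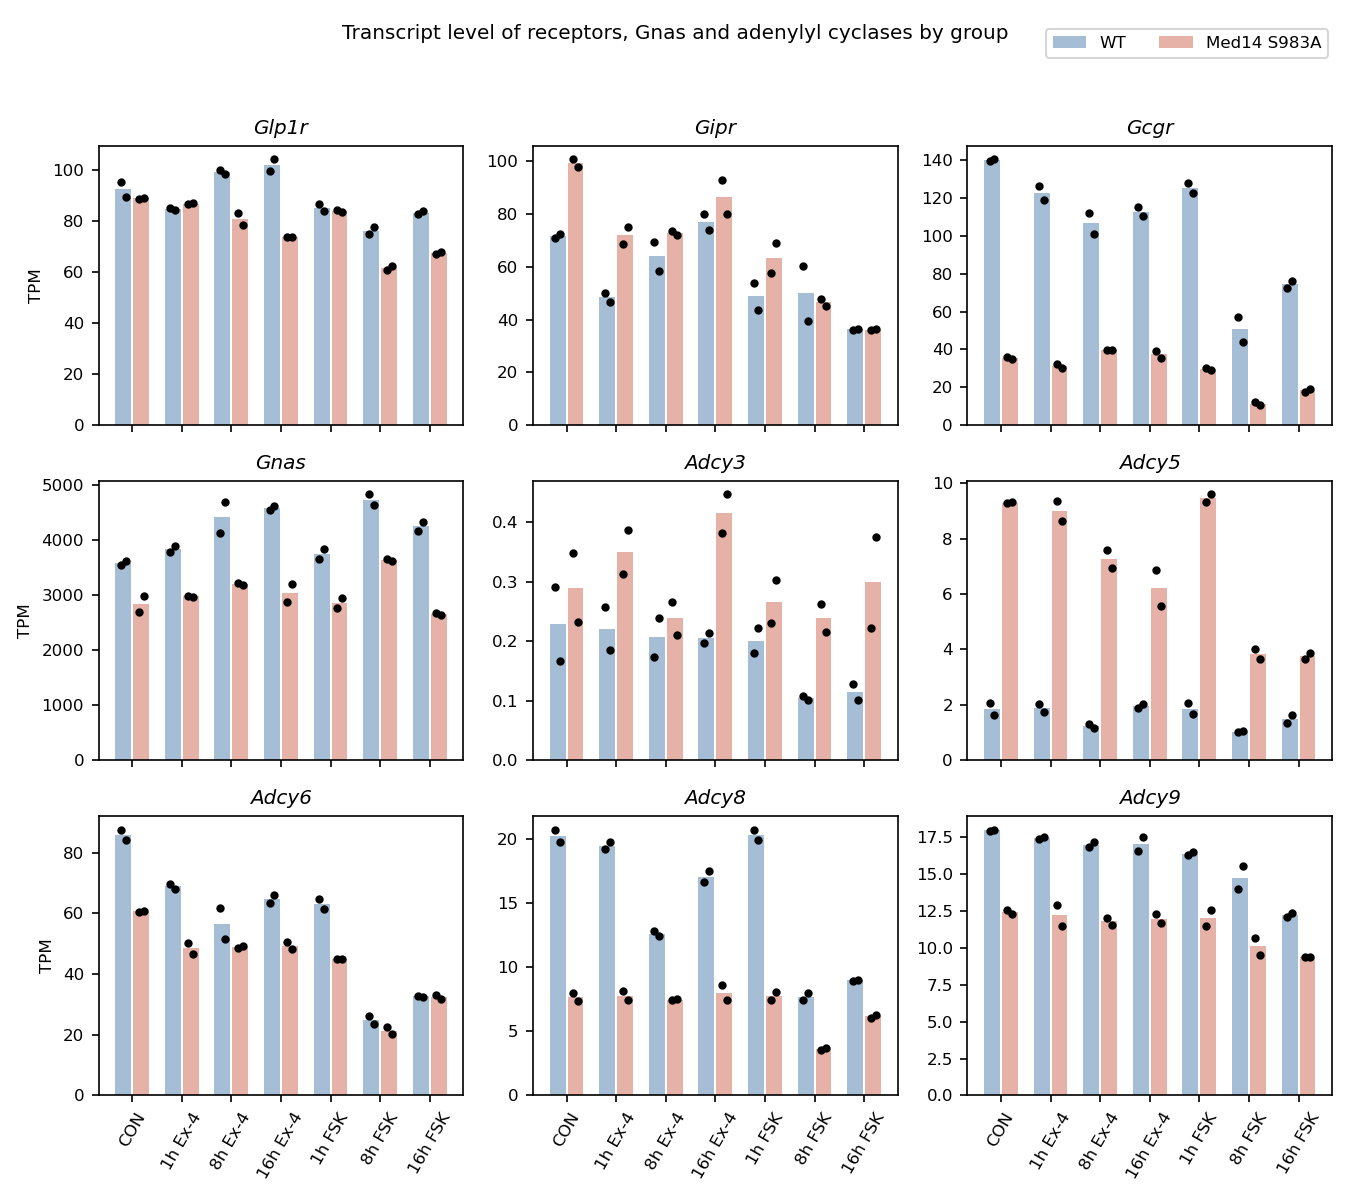
Level (TPM, linear axis from 0, own scale per panel) of the 9 genes in the 7 conditions, WT in blue and Med14 S983A in red. Bars are means of 2 libraries and points are the libraries. Gcgr and Adcy8 sat lower in S983A cells and Adcy5 higher, and 8 h FSK gave the lowest WT mean for Gcgr, Adcy5, Adcy6 and Adcy8.

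The first comparison asked whether untreated S983A cells differ from WT in the parts of the GLP-1 receptor to cAMP route. A gene was called when limma on log2(TPM + 1) gave an adjusted p (Benjamini-Hochberg over 10275 genes) under 0.05 and a fold above 1.5, and all log2 values below are on this scale, which understates changes of genes near 1 TPM. In libraries made from bulk RNA, fewer cells that express a gene and less of its RNA per cell cannot be told apart. Of the 8 genes tested, 3 were called, where 19.4% of all genes were. Gcgr and Adcy8 were lower in S983A cells and Adcy5 was higher. The median log2 difference was -0.42 over the 8 genes and -0.07 over all genes.

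Gcgr (NR_073147, rn6 chr10:109707962-109716129, plus strand), the glucagon receptor, was at 36.1 and 34.8 TPM in S983A CON against 139.6 and 140.6 TPM in WT CON. The groups lie far apart, with a log2 difference of -1.95 (SE 0.08, 3.87-fold, limma adjusted p = 6.5e-17). Its symbol has 3 deposited transcripts over the same exons, and the one with the lowest level gave a call in the same direction. The one kept has the RefSeq prefix of a non-coding RNA. Glp1r (NM_012728, chr20:9586075-9626228, plus strand) was at 88.9 and 89.1 TPM in S983A CON and 95.4 and 89.8 TPM in WT CON. Its replicates lie close together, with a log2 difference of -0.06 (SE 0.04, limma adjusted p = 0.194), and its sign was positive with each library centred on its median (0.03) and with ERCC scaling (0.08). Gipr (NM_012714, chr1:80063049-80073223, minus strand) was at 100.7 and 97.7 TPM in S983A CON and 71.0 and 72.5 TPM in WT CON. The groups do not overlap, but the log2 difference of 0.46 (SE 0.12, limma adjusted p = 0.00194) was under 1.5-fold. With ERCC scaling, which divides by the spiked RNA, it was 0.59 and passed.

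Gnas (NM_001359867, chr3:172420344-172434986, plus strand) was at 2693 and 2977 TPM in S983A CON, below both WT CON libraries, with a log2 difference of -0.34 (SE 0.05, limma adjusted p = 5.16e-06) that was under 1.5-fold. The remaining cyclases were lower by less than 1.5-fold too: Adcy6 (NM_001270785, chr7:140270692-140291620, minus strand) at -0.49 (SE 0.06) and Adcy9 (NM_001371690, chr10:11392695-11515406, plus strand) at -0.50 (SE 0.06) on the log2 scale. Neither reached 1.5-fold, although their groups did not overlap (60.4 and 60.9 TPM for Adcy6, 12.6 and 12.3 TPM for Adcy9 in S983A CON).

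Adcy5 (NM_022600, chr11:68695839-68842320, minus strand), a cyclase inhibited by calcium, was at 9.29 and 9.31 TPM in S983A CON against 2.06 and 1.63 TPM in WT CON. This was the only higher call among the members, with a log2 difference of 1.86 (SE 0.10, 3.63-fold, limma adjusted p = 6.42e-15), and 2.28 with a pseudocount of 0.1 TPM in place of 1. Adcy8 (NM_017142, chr7:105353899-105592804, minus strand), the cyclase stimulated by calcium and calmodulin, was at 7.99 and 7.37 TPM in S983A CON against 20.7 and 19.8 TPM in WT CON. It was lower by a log2 difference of -1.29 (SE 0.07, limma adjusted p = 7.88e-15). These 3 calls of Gcgr, Adcy5 and Adcy8 were also made by edgeR and DESeq2 on recovered fragment counts.

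The genotype difference was then followed through the 6 treatments. Gcgr was lower in S983A cells in each, by log2 differences of -2.07 to -1.40. Adcy5 was higher in each, by 0.94 to 1.89, with its smallest difference after 16 h FSK. Adcy8 was called lower in 5 of 6, by -1.28 to -0.69, and after 16 h FSK its difference of -0.48 was under 1.5-fold. Gnas was called lower after 16 h Ex-4 (-0.59, limma adjusted p = 4.27e-10) and 16 h FSK (-0.67, limma adjusted p = 3.44e-11), but the first was -0.52 and not called without S983A 16 h Ex-4 replicate 1, and both fell under 1.5-fold (-0.40 and -0.44) with the deposited Gnas transcript of lowest level. After 16 h Ex-4, 7 of 8 members were called with ERCC scaling and by DESeq2 with ERCC size factors, in place of 4, since Glp1r (-0.46), Adcy6 (-0.38) and Adcy9 (-0.47) were then at -0.71, -0.63 and -0.71 with ERCC scaling. Gipr after 1 h Ex-4 was at 0.56 (SE 0.12), just under the limit, and was called by edgeR (0.63) and DESeq2 (0.63), after centring (0.63), with ERCC scaling (0.70) and without WT 1 h Ex-4 replicate 1 (0.61) or S983A 1 h Ex-4 replicate 1 (0.63). Of the 10275 genes, 19.7% were called between genotypes after 1 h Ex-4, 18.8% after 8 h Ex-4, 20.8% after 16 h Ex-4, 20.1% after 1 h FSK, 21% after 8 h FSK and 23.3% after 16 h FSK, beside 3, 3, 4, 3, 3 and 3 of the 8 members.

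**Figure D2:**
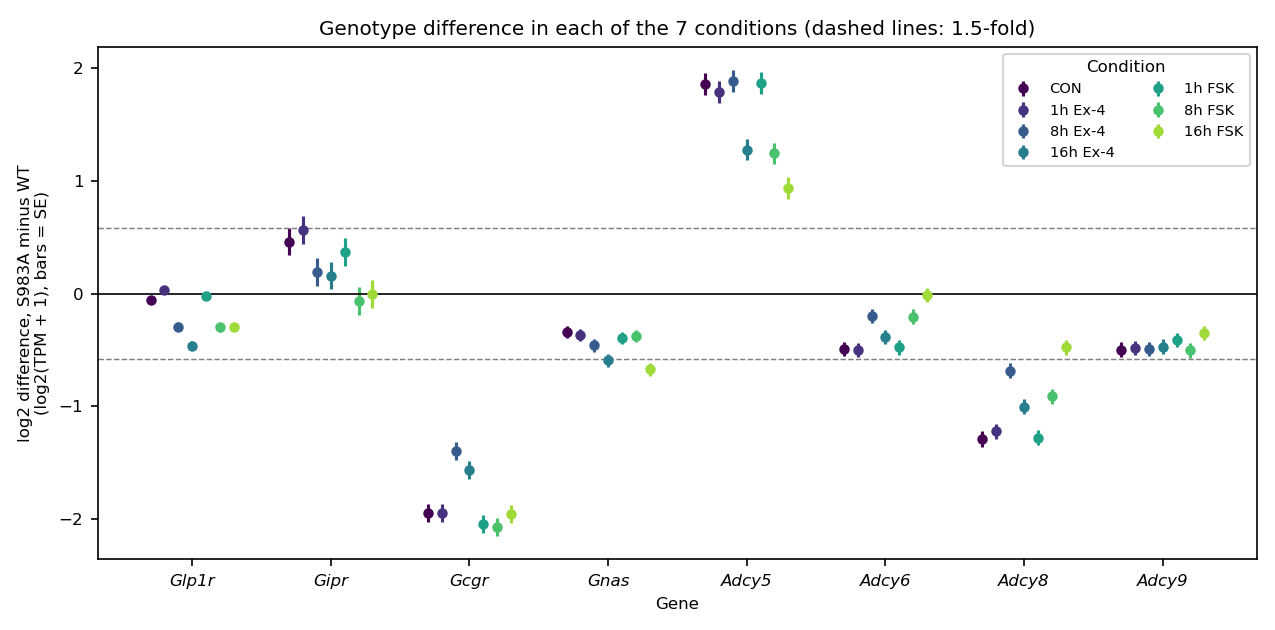
Log2 difference Med14 S983A minus WT on log2(TPM + 1) (vertical axis) for the 8 tested genes in each of the 7 conditions (colours), with bars for the SE of the limma fit and dashed lines at 1.5-fold. Gcgr stays between -2.07 and -1.40 and Adcy5 between 0.94 and 1.89.

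The next comparisons set each treatment against CON of the same genotype and share those CON libraries. After 1 h Ex-4, none of the 8 genes was called in either genotype by limma, edgeR or DESeq2, with 4 (WT) and 3 (S983A) at an unadjusted p under 0.05, where 2.87% and 3.04% of all genes were called. Gipr, the GIP receptor, moved most, from 71.0 and 72.5 TPM in WT CON to 49.999 and 46.8 TPM, which is -0.56 on the log2 scale (SE 0.12, limma adjusted p = 0.00125) that was under 1.5-fold, but -0.61 and called without WT 1 h Ex-4 replicate 1. In S983A cells, Gipr went from 100.7 and 97.7 TPM to 68.7 and 75.3 TPM (-0.46, SE 0.12). The treated libraries lie below their controls in both genotypes.

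At 8 h Ex-4, the cyclases Adcy6 and Adcy8 fell in WT cells, 2 of 8 genes where 9.6% of all genes were called. Adcy8 went from 20.7 and 19.8 TPM to 12.8 and 12.4 TPM (-0.64, SE 0.07, limma adjusted p = 1.5e-08). Adcy6 went from 87.6 and 84.1 TPM to 61.7 and 51.4 TPM (-0.60, SE 0.06, limma adjusted p = 1.55e-08). Both groups lie clear of CON, but the sizes are near the 1.5-fold limit: Adcy6 was at -0.57 without WT CON replicate 1 and -0.47 without WT 8 h Ex-4 replicate 2, and both calls were lost when each library was centred on its median (-0.48 for Adcy6 and -0.52 for Adcy8) and with DESeq2. In S983A cells at 8 h Ex-4, none of the 8 was called by limma, edgeR or DESeq2, with 5 at an unadjusted p under 0.05, where 6.3% of all genes were called. Adcy8 stood at 7.44 and 7.51 TPM there, inside the range of its 2 controls.

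After 16 h Ex-4, none of the 8 was called in WT or S983A cells by limma, edgeR or DESeq2, with 5 and 3 at an unadjusted p under 0.05, and DESeq2 with ERCC size factors called 1 in each. The background was 11.8% and 11.9%. Glp1r, the receptor of the agonist, was at 99.95 and 104.4 TPM in WT 16 h Ex-4 (log2 difference from CON 0.14, SE 0.04) and at 73.8 and 73.8 TPM in S983A 16 h Ex-4 (-0.27, SE 0.04), both under 1.5-fold. Gnas was at 4545 and 4603 TPM in WT 16 h Ex-4, above both controls (0.35, SE 0.05), and 0.64 with ERCC scaling, which passed. In S983A cells, Gnas was at 2868 and 3198 TPM, overlapping its controls. Adcy5 was at 6.88 and 5.57 TPM in S983A 16 h Ex-4, below its controls at 9.29 and 9.31 TPM, at a log2 difference of -0.52 (SE 0.10) that was under 1.5-fold but -0.60 with ERCC scaling and -0.65 without S983A 16 h Ex-4 replicate 1, both called.

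Forskolin lowered more of these genes and by more. After 1 h FSK, none of the 8 was called in WT cells by limma, edgeR or DESeq2 (3 at an unadjusted p under 0.05, background 7.47%). In S983A cells Gipr was called, 1 of 8 where 10.4% of all genes were, at 57.5 and 69.0 TPM against 100.7 and 97.7 TPM (-0.65, SE 0.12, limma adjusted p = 8.5e-05). That call was lost without S983A 1 h FSK replicate 1 (-0.52) and by edgeR (-0.53) and DESeq2 (-0.49). Adcy6 in S983A 1 h FSK was at 44.9 and 45.1 TPM, below its controls (-0.42), under 1.5-fold. It was called with ERCC scaling (-0.63) and by DESeq2 with ERCC size factors (-0.63). Gipr in WT 1 h FSK stood at 54.0 and 43.7 TPM (-0.55, SE 0.12), which was under 1.5-fold but -0.70 and called without WT 1 h FSK replicate 1. The difference between the genotypes in this response was -0.09 (SE 0.17).

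After 8 h FSK, Gcgr, Adcy6 and Adcy8 fell in both genotypes, and Gipr and Adcy5 also in S983A cells. These were 3 of 8 in WT cells and 5 of 8 in S983A cells, where 43.6% and 46.1% of all genes were called, so that the share of members lay close to that of all genes. The median log2 change was -0.51 (WT) and -0.99 (S983A) over the 8 genes and -0.34 and -0.28 over all genes. Adcy6 went from 87.6 and 84.1 TPM to 26.1 and 23.5 TPM in WT cells (-1.75, SE 0.06) and from 60.4 and 60.9 TPM to 22.4 and 20.4 TPM in S983A cells (-1.46, SE 0.06). Gcgr went to 57.3 and 44.1 TPM in WT cells (-1.46, SE 0.08) and to 12.02 and 10.4 TPM in S983A cells (-1.58, SE 0.08). Adcy8 went to 7.42 and 7.98 TPM (-1.29, SE 0.07) and to 3.54 and 3.69 TPM (-0.91, SE 0.07), the lowest of its 14 groups. With each library centred on its median, the S983A change of Adcy8 was -0.57 and not called.

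Gipr was called at 8 h FSK in S983A cells, at 47.9 and 45.2 TPM (-1.08, SE 0.12), whereas its WT replicates were apart at 60.4 and 39.4 TPM (-0.55, SE 0.12). Without WT 8 h FSK replicate 1 the WT change was -0.85 and called. Adcy5 was at 4.01 and 3.66 TPM in S983A cells, against 9.29 and 9.31 TPM in CON (-1.09, SE 0.10, limma adjusted p = 9.15e-11). In WT cells, Adcy5 was at 1.00 and 1.07 TPM (-0.48, SE 0.10). This WT change was -0.59 and called without WT CON replicate 2. It was also called with a pseudocount of 0.1 TPM (-0.76) and by DESeq2 with ERCC size factors (-0.82). Gnas was at 4822 and 4632 TPM in WT cells (0.40, SE 0.05) and at 3653 and 3623 TPM in S983A cells (0.36, SE 0.05), above its controls in both, under 1.5-fold. Gnas was called higher in both by edgeR (0.72 and 0.63), by DESeq2 (0.75 and 0.67) and with each library centred on its median (0.79 and 0.70). Glp1r was at 61.0 and 62.5 TPM in S983A 8 h FSK, its lowest pair (-0.52, SE 0.04), under 1.5-fold. By DESeq2 with ERCC size factors, this change of Glp1r was -0.61 and called. Adcy9 was at -0.27 (WT) and -0.28 (S983A).

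After 16 h FSK, Gipr, Gcgr, Adcy6 and Adcy8 fell in WT cells, and Gipr, Gcgr, Adcy5 and Adcy6 in S983A cells. These were 4 of 8 in each, with a background of 34.5% and 33.3%. Gipr ended at overlapping levels in the genotypes, 36.0 and 36.6 TPM in WT (-0.96, SE 0.12) and 36.1 and 36.3 TPM in S983A cells (-1.43, SE 0.12). Adcy6 did likewise, at 32.8 and 32.6 TPM (-1.37, SE 0.06) and 33.0 and 31.7 TPM (-0.89, SE 0.06). Gcgr was at 72.4 and 76.4 TPM in WT cells (-0.90, SE 0.08) and 17.7 and 18.97 TPM in S983A cells (-0.91, SE 0.08), and with ERCC scaling the WT change was -0.56 and not called. Adcy9 reached its lowest levels, 12.1 and 12.4 TPM (-0.52) and 9.36 and 9.38 TPM (-0.37), under 1.5-fold.

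**Figure D3:**
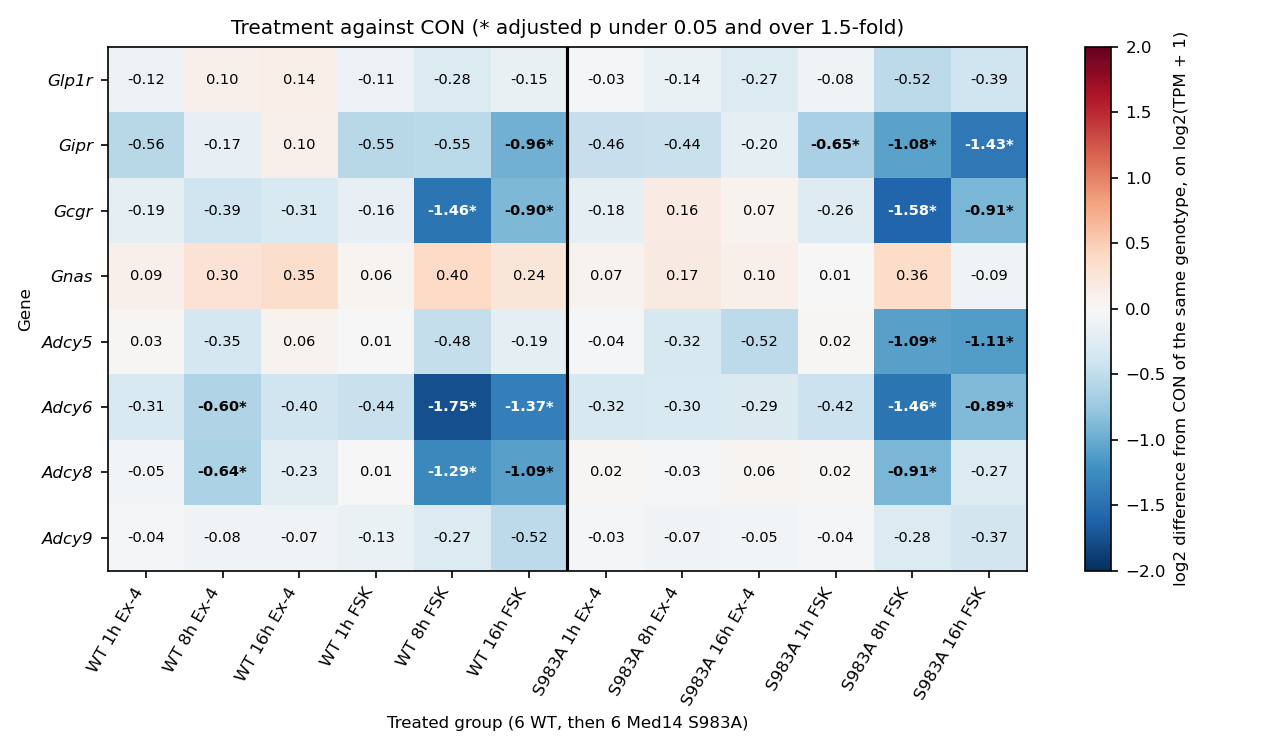
Log2 difference of each treated group from CON of the same genotype on log2(TPM + 1) (colour and printed value) for the 8 tested genes, WT left of the line and Med14 S983A right. Asterisks mark adjusted p under 0.05 with a fold above 1.5, which all lie on lower values, 17 of 19 of them under FSK. Over all genes called, 3579 of 4480 (WT) and 3550 of 4738 (S983A) were lower after 8 h FSK. After 16 h FSK these were 2478 of 3540 and 2168 of 3423.

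Whether the 2 genotypes differed in their response was tested as an interaction (S983A response minus WT response). At 1 h, none of the 8 was called for Ex-4 or FSK by limma, edgeR or DESeq2, with 0 at an unadjusted p under 0.05 in each (background 0.672% and 1.64%). At 8 h Ex-4, Adcy8 was called (0.61, SE 0.09, limma adjusted p = 5.66e-05), 1 of 8 against 2.77% of all genes: it fell in WT cells, from a higher level, and stood at its control level in S983A cells. The call was lost without WT CON replicate 1 (0.58), without S983A CON replicate 2 (0.55) and by edgeR (0.57) and DESeq2 (0.56). It was also lost after centring on the median (0.52) and by DESeq2 with ERCC size factors (0.48). With ERCC scaling (0.53, limma adjusted p = 0.0547), it missed both the fold and the p limit. At 16 h Ex-4, limma called none of the 8 (5 at an unadjusted p under 0.05, background 7.24%), while edgeR and DESeq2 called 1 (Adcy5) and DESeq2 with ERCC size factors 4. Adcy5 was at -0.58 (SE 0.14), just under the limit, and was called without S983A 16 h Ex-4 replicate 1 (-0.71), WT CON replicate 1 (-0.69) or WT 16 h Ex-4 replicate 1 (-0.62). Glp1r was at -0.41 (SE 0.05, limma adjusted p = 1.44e-06), under 1.5-fold, and at -0.79 and called with ERCC scaling.

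At 8 h FSK, 1 of 8 was called (Adcy5, -0.62, SE 0.14, limma adjusted p = 0.000491), with a background of 13.9%. This was -0.51 without WT CON replicate 2 and -0.56 without S983A 8 h FSK replicate 2, and was not called then. Nor was it called by edgeR (-0.52) and DESeq2 (-0.51), which called Gipr (-0.62 and -0.61) in its place. The Adcy5 call was also lost with a pseudocount of 0.1 TPM (-0.49) and by DESeq2 with ERCC size factors (-0.55). At 16 h FSK, Adcy5 (-0.92, SE 0.14, limma adjusted p = 2.83e-06) and Adcy8 (0.82, SE 0.09, limma adjusted p = 8.22e-08) were called, 2 of 8 against 17%. Adcy8 was at 6.08 and 6.28 TPM in S983A 16 h FSK against 7.99 and 7.37 TPM in CON, and at 8.91 and 9.06 TPM in WT 16 h FSK against 20.7 and 19.8 TPM. Adcy5 was at 3.65 and 3.88 TPM in S983A 16 h FSK against 9.29 and 9.31 TPM, and at 1.34 and 1.64 TPM in WT 16 h FSK. Each gene thus changed more in the genotype where its untreated level was higher. Adcy5 in WT cells was near 1 TPM, where the pseudocount compresses changes. The Adcy8 interaction at 16 h FSK was called in 40 of 40 fits, and that of Adcy5 in all 39 in which it was tested.

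Ex-4 and FSK were compared directly at matched times. Ex-4 acts through the receptor and FSK on the cyclases, and 1 dose of each was used. At 1 h, none of the 8 genes differed in WT or S983A cells by limma, edgeR or DESeq2, with 0 at an unadjusted p under 0.05 in each (background 1.79% and 3.03%). The largest difference at 1 h was that of Gipr in S983A cells, 0.19 (SE 0.12). At 8 h in WT cells, Adcy6 (1.15, SE 0.06), Gcgr (1.07, SE 0.08) and Adcy8 (0.65, SE 0.07) were higher with Ex-4 than with FSK, 3 of 8 against 28.1%, of which Adcy8 was not called by edgeR (0.48) or DESeq2 (0.46). At 8 h in S983A cells, Gcgr (1.74, SE 0.08), Adcy6 (1.16, SE 0.06), Adcy8 (0.88, SE 0.07), Adcy5 (0.77, SE 0.10) and Gipr (0.63, SE 0.12) were higher with Ex-4, 5 of 8 against 36.5%, of which Adcy5, Adcy8 and Gipr were not called after centring on the median of each library.

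At 16 h in WT cells, Gipr (1.06, SE 0.12), Adcy6 (0.97, SE 0.06), Adcy8 (0.86, SE 0.07) and Gcgr (0.60, SE 0.08) were higher with Ex-4, 4 of 8 against 18.7%. Gcgr lost its call without WT 16 h Ex-4 replicate 1 (0.57) or WT 16 h FSK replicate 1 (0.56), by edgeR (0.57) and DESeq2 (0.56), after centring (0.54) and with ERCC scaling (0.54). At 16 h in S983A cells these were Gipr (1.23, SE 0.12), Gcgr (0.99, SE 0.08), Adcy6 (0.60, SE 0.06) and Adcy5 (0.60, SE 0.10), 4 of 8 against 16.3%. The last 2 lost their calls with ERCC scaling (0.25 for Adcy6 and 0.31 for Adcy5) and without S983A 16 h Ex-4 replicate 1 (0.56 and 0.46). They also lost them without 1 of the FSK libraries, replicate 2 for Adcy6 (0.57) and replicate 1 for Adcy5 (0.56). All 16 called differences had the higher level with Ex-4. Over all genes called at 8 h, 2396 of 2886 (WT) and 3057 of 3747 (S983A) were higher with Ex-4. After centring on the median of each library, these were 1195 of 2253 and 1684 of 3272. At 16 h, 1176 of 1925 (WT) and 1085 of 1677 (S983A) of all genes called were higher with Ex-4.

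Between 8 h and 16 h, most members differed under FSK, at an adjusted p under 0.05 for 8 of 8 in WT and 6 of 8 in S983A cells, but few by more than 1.5-fold. For Ex-4, none of the 8 was called by limma in WT cells (4 at an unadjusted p under 0.05, background 5.58%), where edgeR and DESeq2 called 1 (Adcy5), or in S983A cells by limma, edgeR or DESeq2 (2 at an unadjusted p under 0.05, background 3.96%). For FSK, limma called none in WT cells (8 at an unadjusted p under 0.05, background 17.6%), where edgeR and DESeq2 called 1 (Gipr) and DESeq2 with ERCC size factors 4. In S983A cells, Gcgr (0.67, SE 0.08, limma adjusted p = 4.87e-08) and Adcy8 (0.64, SE 0.07, limma adjusted p = 4.87e-09) were higher at 16 h than at 8 h FSK, 2 of 8 against 27.9%. Gcgr went from 12.02 and 10.4 to 17.7 and 18.97 TPM and Adcy8 from 3.54 and 3.69 to 6.08 and 6.28 TPM, without overlap. The call for Gcgr was lost without S983A 8 h FSK replicate 2, the deepest library (0.57), and both were lost by edgeR (0.54 and 0.58) and DESeq2 (0.54 and 0.58). Those tests called Gnas lower at 16 h in their place (-0.64 by each), as did centring on the median (-0.64), while limma gave -0.45 (SE 0.05), under 1.5-fold. Adcy6 was at 0.58 (SE 0.06), just under the limit, and was called with ERCC scaling (0.87) and without S983A 8 h FSK replicate 1 (0.64) or S983A 16 h FSK replicate 2 (0.60). Gcgr in WT cells was at 0.55 (SE 0.08), under 1.5-fold, and was called with ERCC scaling (0.93) and without WT 8 h FSK replicate 1 (0.74) or WT 16 h FSK replicate 1 (0.59).

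The make-up of each step followed from these levels. Among the 3 receptors, Gcgr held 46.0% ± 0.57 (SD, n = 2) of the summed TPM in WT CON and 15.9% ± 0.21 in S983A CON, Gipr 23.6% ± 0.52 and 44.3% ± 0.39, and Glp1r 30.4% ± 1.1 and 39.8% ± 0.60. The receptor sum was 304.5 ± 2.3 TPM in WT CON and 223.7 ± 2.9 TPM in S983A CON. These receptor shares and sums take Gcgr from NR_073147 alone, 1 of its 3 deposited transcripts. Over 10 adenylyl cyclase genes in the table, Adcy6 held 65.5% ± 0.18 of the summed TPM in WT CON and 65.5% ± 0.61 in S983A CON, while Adcy8 held 15.4% ± 0.01 and 8.29% ± 0.45 and Adcy5 1.40% ± 0.19 and 10.0% ± 0.05. The cyclase sum was 131.2 ± 4.2 and 92.6 ± 0.33 TPM. It was lowest after 8 h FSK, at 50.8 ± 0.06 TPM in WT and 41.0 ± 2.6 TPM in S983A cells, and Adcy9 then held 29.0% ± 2.1 and 24.6% ± 0.39 against 13.7% ± 0.48 and 13.4% ± 0.15 in CON. A share of transcripts is not a share of enzyme activity.

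**Figure D4:**
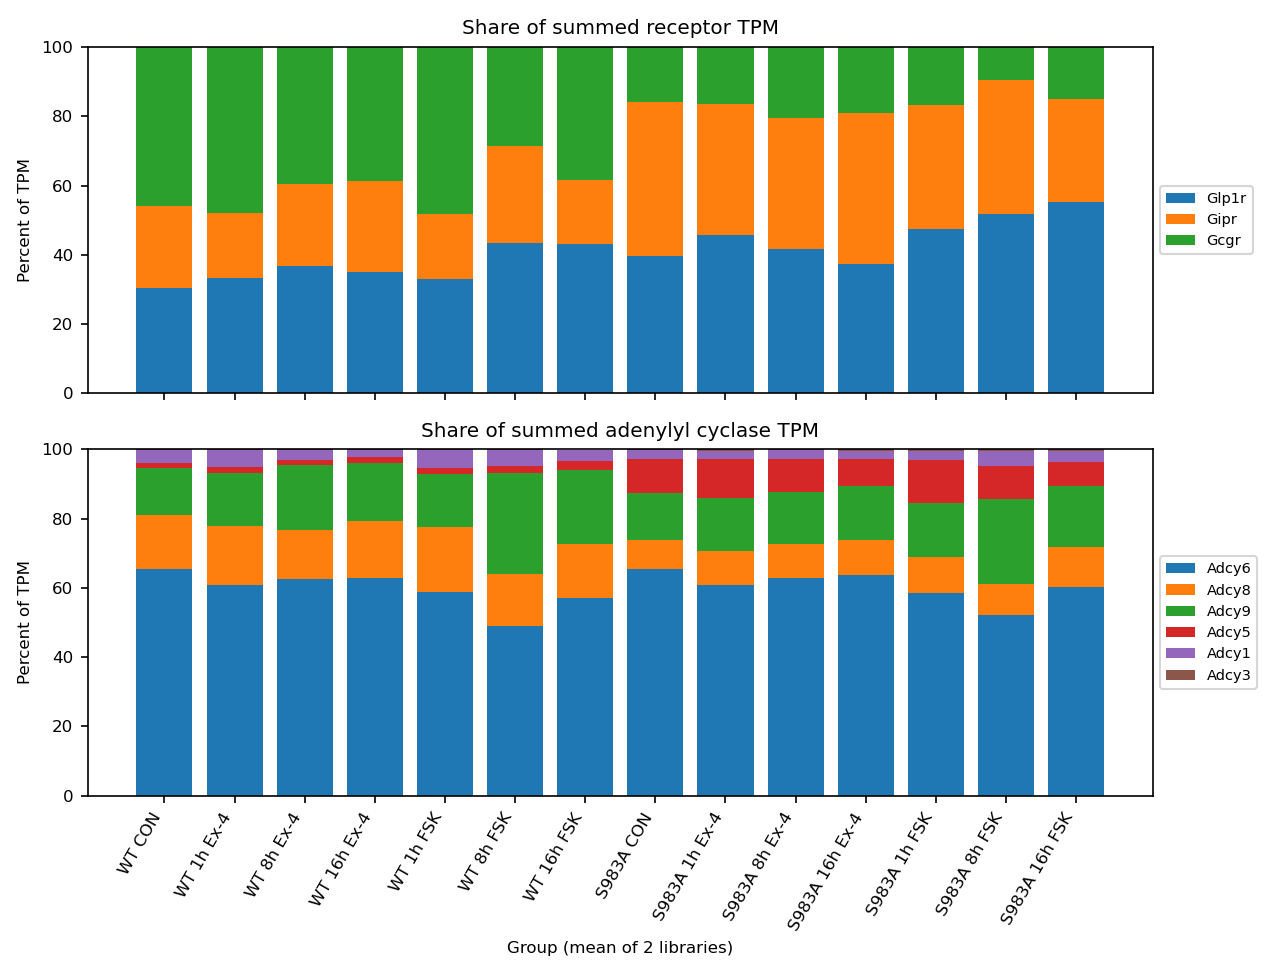
Percent of the summed TPM of the 3 receptors (top) and of the adenylyl cyclases (bottom, with Adcy1, Adcy3, Adcy5, Adcy6, Adcy8 and Adcy9 drawn) in each of the 14 groups, as means of 2 libraries. Gcgr, from transcript NR_073147 alone, holds 46.0% of receptor TPM in WT CON and 15.9% in S983A CON. Adcy5 holds 1.40% and 10.0% of cyclase TPM.

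The other genes of the route were taken from lists and are given for 16 h in WT cells, for genotype at CON and for the interaction at 16 h Ex-4. The counts of each list are to be read against the share of all genes called, which was 11.8% with 16 h Ex-4, 34.5% with 16 h FSK, 19.4% for genotype at CON and 7.24% for the interaction. Of 5 other adenylyl cyclases, 1 was tested: Adcy1, a calcium-stimulated cyclase, at 5.49 and 4.51 TPM in WT CON and 2.19 and 2.20 TPM in S983A CON, was lower in S983A cells (-0.90, SE 0.13) and fell with 16 h Ex-4 (-1.0003) and 16 h FSK (-1.09) in WT cells. Its response to 16 h Ex-4 differed between genotypes (0.74, SE 0.18, limma adjusted p = 0.00184). Of 15 other class B receptors and their RAMP partners, 4 were tested. Adcyap1r1, the PACAP receptor (23.1 ± 0.97 TPM in WT CON and 8.96 ± 0.31 in S983A CON, -1.27), and Crhr1, the CRH receptor (-0.77), were lower in S983A cells. Vipr1, a VIP receptor, fell with 16 h Ex-4 (-0.68) and 16 h FSK (-1.50) in WT cells, and Crhr1 with 16 h FSK (-0.65). The transcript kept for Crhr1, NR_126014, has the RefSeq prefix of a non-coding RNA. In this list, 2 of 4 were called lower at CON between genotypes, 1 of 4 with 16 h Ex-4 and 2 of 4 with 16 h FSK, where 19.4%, 11.8% and 34.5% of all genes were called.

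Of 12 other G protein alpha genes, 9 were tested. Their median log2 change with 16 h Ex-4 in WT cells was -0.32 (all genes -0.16), 3 fell with 16 h FSK (Gnaz -0.84, Gnaq -0.77 and Gnai2 -0.74), and 1 was lower in S983A CON (Gna12, -0.74). Of 15 beta and gamma genes, 11 were tested. Gng2 rose with 16 h Ex-4 (1.09) and 16 h FSK (1.91) in WT cells and was lower in S983A CON (0.02 TPM in both libraries against 3.75 ± 0.26 TPM). Gng8 was higher in S983A CON (17.3 ± 2.7 against 2.51 ± 0.74 TPM, 2.39) and rose with 16 h FSK in WT cells (1.95), and Gng3 fell with 16 h FSK (-1.01). At CON, 2 of 11 were called higher and 3 lower in S983A cells, Gng7 (-0.74) among the lower. In the interaction at 16 h Ex-4, 2 of 11 were called higher and 2 lower, Gng8 (-0.97) and Gng3 (0.81) among them. Gng2 was the other lower call, but it was near 0 in S983A cells with and without Ex-4, so that this call restates its rise in WT cells.

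Receptors that couple to the inhibitory G protein numbered 20, of which 11 were tested. With 16 h Ex-4 in WT cells 3 fell, the melatonin receptor Mtnr1a (-0.95), the muscarinic receptor Chrm4 (-0.62) and the prostaglandin receptor Ptger3 (-0.61). With 16 h FSK, 4 fell and 2 rose (34.5% of all genes were called), led by Mtnr1a (-2.85), Chrm4 (-1.60) and the dopamine receptor Drd2 (-1.10). At CON, 4 were lower and 2 higher in S983A cells, led by Mtnr1a (-1.94), the adenosine receptor Adora1 (113.5 ± 13 to 33.4 ± 1.1 TPM, -1.73) and the cannabinoid receptor Cnr1 (1.62). At 16 h Ex-4, 3 of 11 interactions were called, all positive: Ptger3 (1.57), Sstr1, a somatostatin receptor (1.12), and Mtnr1a (0.82). Of 16 other receptors that couple to the stimulatory G protein, 6 were tested. The adenosine receptor Adora2b fell with 16 h Ex-4 (-1.45) and 16 h FSK (-2.96) in WT cells, and Adora2a with FSK (-1.80). Gpr3, a constitutively active receptor at 0.209 ± 0.11 TPM in WT CON, rose with both (0.81 and 2.30). At CON, 2 of 6 were higher (Adora2a 1.09 and the TSH receptor Tshr 0.91) and 2 lower, Gpr6 (-1.45) among them. At 16 h Ex-4, 2 of 6 interactions were called, both negative (Adora2a -0.71 and Gpr119, a lipid receptor, -0.60).

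Of 11 chaperones and cyclase partners, 7 were tested. Snap25, a SNARE protein of insulin granule release, rose with 16 h Ex-4 (0.72) and 16 h FSK (1.28) in WT cells, was higher in S983A CON (242.4 ± 12 against 155.1 ± 2.5 TPM, 0.64), and had a called interaction at 16 h Ex-4 (-0.61). Rapgef4, which encodes Epac2 (-1.25), and Pdcl, a chaperone of G protein beta subunits (-0.87), fell with 16 h FSK. Of 7 peptide ligand genes, 2 were tested. Gcg, which encodes glucagon and GLP-1, was at 165.5 and 168.6 TPM in WT CON and 6.09 and 6.56 TPM in S983A CON (-4.52, SE 0.07), and it rose with 16 h Ex-4 to 956.3 ± 13 TPM in WT cells (2.51) and to 44.5 ± 1.5 TPM in S983A cells. Of 5 alpha cell markers, 2 reached a mean of 1 TPM, Gcg among them. Sct, the secretin gene, was higher in S983A CON (0.93) and fell with 16 h FSK in WT cells (-0.84). Beta cell markers moved with the same comparisons: of 10 tested, 2 rose and 7 fell with 16 h FSK in WT cells (median -0.94), led by Neurod1 (-1.96), Ins2 (-1.39) and Slc2a2 (-1.16), and 2 rose (Ins1 0.77 and Iapp 0.69) and 1 fell (Slc2a2 -0.76) with 16 h Ex-4. Between genotypes at CON, 2 were higher and 2 lower, led by Ins2 (3.57), Slc2a2 (-3.02) and Iapp (-1.10), and at 16 h Ex-4 3 of 10 interactions were called, all negative (Pcsk1 -0.73, Ins1 -0.62 and Nkx6-1 -0.62). Whether these have a part in the changes of the members was not tested.

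The patterns of the members over the 14 group means of log2(TPM + 1) are given as Pearson r, which describes groups that share genotype and treatment. Gcgr, Adcy8 and Adcy9 were most alike (r = 0.95 for Gcgr and Adcy8, 0.93 for Gcgr and Adcy9, 0.90 for Adcy8 and Adcy9), and Gnas and Adcy5 were most opposed (r = -0.86). Glp1r and Gipr correlated at 0.47. Among all genes tested, the 3 most like Glp1r were Ube2q1 (0.94), Actn1 (0.93) and RGD1565367 (0.93), and those most like Gipr were Shisa2 (0.92), Iffo1 (0.90) and Zfp513 (0.90). For Gcgr they were Ppp3cb (0.99), Vps33a (0.98) and Hip1r (0.98), and for Gnas Nsg1 (0.97), Cux2 (0.97) and Skp1 (0.95). For Adcy5 they included Ptgr1 (0.99) and Fndc5 (0.99), for Adcy6 they were Deaf1 (0.99), Ganc (0.98) and Zfp512b (0.98), for Adcy8 Cdk2ap1 (0.98), Ube2r2 (0.98) and Lhx8 (0.98), and for Adcy9 they included Cdh1 (0.98) and Tmem63c (0.98).

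On the chromosome, the 25 tested genes on each side of each member had median genotype differences near 0 at CON. The median log2 difference was 0.05 around Gcgr, -0.12 around Adcy5 and -0.07 around Adcy8, against -1.95, 1.86 and -1.29 for the genes themselves. Around the 8 members it ranged from -0.17 (Adcy6) to 0.05, and 12% to 26% of neighbours were called, where 19.4% of all genes were.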

How the data were processed

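RNA was measured in 28 libraries, 2 for each of 14 groups, with ERCC spike-in RNA added to equal amounts of total RNA. The authors aligned reads with STAR 2.5.3a to rn6 plus ERCC and deposited TPM per RefSeq transcript, made with HOMER 4.11.1 from reads over exons, and a table of counts per ERCC sequence. Strand setting of the TPM is not given in the sources used here. Library numbers in the file headers differ from those in the labels, so columns were matched by genotype, treatment, time and replicate. Depth, summed over all deposited transcripts, was 42183630 to 91794163 fragments. Low TPM values gave whole reads (2 per fragment) for 100.0% of 124685 values within 0.05 reads, and these were used for the count tests.

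For each symbol, the transcript with the highest mean TPM was kept. Log2(TPM + 1) of the 10275 symbols with a mean of at least 1 TPM was fitted with limma 3.58.1 (R 4.3.3) over 14 group means, with moderated variances following a mean trend and 14 residual degrees of freedom. P-values were adjusted by Benjamini-Hochberg over all genes tested, and calls needed an adjusted p under 0.05 and a fold above 1.5. The study's own test was DESeq2 with ERCC size factors on counts. Because the deposited unit is TPM, limma took its place, and edgeR 4.0.16 and DESeq2 1.42.0 (default and ERCC size factors) ran as alternatives on recovered counts. Other alternatives were the pseudocount, the filter, centring on the median, ERCC scaling, a replicate block, fitting only the groups compared, no fold minimum, leaving out each library, and, chosen after seeing the data, the lowest deposited transcript of each member. The limma step was tested on simulated counts for the comparison of 16 h Ex-4 with CON in WT cells, with changes well above 1.5-fold. The count tests, the interactions and changes near 1.5-fold were not tested in this way.

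The genes and lists were chosen with earlier results of these data known. Named genes were all 9 members, up to 3 called genes of largest change per list in 4 comparisons, the 3 genes most correlated with each tested member over 14 group means, Med14 and cell type markers. Some genes that this rule names are not reported here. Promoters came from RefSeq (GRCr8), which is not the build of the files.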

Additional observations from a re-analysis of the deposited data

Results flagged for a closer look

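By a limma test of the interaction, 2 of the 8 genes were called, with responses that differed between the genotypes by more than 1.5-fold. Of all genes, 2.77% were called at 8 h Ex-4, 7.24% at 16 h Ex-4, 13.9% at 8 h FSK and 17% at 16 h FSK. Without a fold minimum, 4, 5, 5 and 6 of the 8 members had an adjusted p under 0.05 in these limma tests. At 16 h Ex-4, 4 members were called with ERCC scaling and by DESeq2 with ERCC size factors. For Adcy8, the S983A response minus the WT response was 0.61 on the log2 scale at 8 h Ex-4 and 0.82 at 16 h FSK. For Adcy5, it was -0.62 at 8 h FSK and -0.92 at 16 h FSK. Only the values at 16 h FSK were called in every fit in which the gene was tested. Both genes also differed in their untreated level between the genotypes, and the part of this in the interaction was not tested.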

How the results depend on the processing

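Of 280 pairs of a gene and a comparison, 63 were called, 18 of these lost the call in at least 1 alternative other than leaving out a library, 9 lost it without 1 library, and 0 changed sign. Without a fold minimum, the calls were 60 in place of 19 for treatment against CON, 7 in place of 3 for genotype at CON, 20 in place of 4 for the interaction, 29 in place of 16 for Ex-4 against FSK, 18 in place of 2 for 16 h against 8 h, 41 in place of 19 for genotype under treatment, and 869 in place of 364 over the pathway lists. The interaction had 2 calls with a mean of at least 5 TPM, where Adcy5 was no longer tested, 7 with ERCC scaling and 8 by DESeq2 with ERCC size factors. Ex-4 against FSK had 9 calls after centring on the median. For 16 h against 8 h there were 4 with a pseudocount of 0.1 TPM, 1 after centring, 5 with ERCC scaling and 9 by DESeq2 with ERCC size factors. Except for the filter, the cause was not tested. Leaving out 1 library gave 18 to 20 calls for treatment, 3 to 3 for genotype at CON, 3 to 5 for the interaction, 14 to 17 for Ex-4 against FSK, 1 to 3 for 16 h against 8 h, 18 to 20 for genotype under treatment, 361 to 373 over the lists, and 3 to 4 members apart from their neighbours.

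For each group, the deviation of replicate 1 from its group mean was taken per gene on the log2 scale. Between groups, these deviations correlated over genes at r = -0.28 to 0.283 over 91 pairs of groups, with 17 over 0.1. Same-numbered libraries were not treated as pairs in the main fit. Correlations of this size cannot show whether same-numbered libraries shared a culture or a preparation. With the replicate block, the calls were 19, 3, 4, 16, 2 and 19 for the comparisons in the order above, and 364 over the lists.

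Over all genes, the count of calls moved by more than 1.5 times in 6 of 35 comparisons with ERCC scaling and in 9 by DESeq2 with ERCC size factors. At the 16 h Ex-4 interaction it went from 744 to 1411 and 1908, and the share of higher calls from 75.0% to 11.2% and 7.8%, or to 46.6% after centring. For WT FSK at 16 h against 8 h it went from 1806 to 3948 and 4429. With 2 libraries per group, changes near 1.5-fold are the least certain.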
